A study of Mus musculus with 12 samples.

Results

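The troponin genes are the 8 genes that encode the fast, slow and cardiac forms of the subunits of the troponin complex. They were chosen by name, as *Tnnc1*, *Tnnc2*, *Tnni1*, *Tnni2*, *Tnni3*, *Tnnt1*, *Tnnt2* and *Tnnt3*, and all 8 were found among the 46983 genes of the series. RNA of C2C12 cells, a mouse myoblast line that fuses into myotubes, was sequenced in 4 groups of 3 libraries each. The groups were WT_0d, WT_5d, PPARγ/+_0d and PPARγ/+_5d, namely WT cells, which carried the PB-IP vector, and PPARγ/+ cells, each on day 0 and on day 5 of differentiation. The PPARγ/+ cells overexpressed PPARγ from a PiggyBac construct and were obtained by puromycin selection, and the number of clones in the line is not given in the sources used here. The libraries of a group are described as biological replicates, with no further detail on the cultures they came from, and the p-values measure the spread between them.

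Troponin is the calcium switch of the thin filament of striated muscle. Troponin C binds calcium, troponin I holds actin and myosin apart while calcium is low, and troponin T ties the complex to tropomyosin. Each subunit has forms made by separate genes. *Tnnc1*, *Tnni1* and *Tnnt1* encode the slow forms, and *Tnnc1* also serves the heart. *Tnnc2*, *Tnni2* and *Tnnt3* encode the fast forms, while *Tnni3* and *Tnnt2* encode the cardiac ones, of which *Tnnt2* is also known from immature skeletal muscle. The comparisons ask which of these genes change as the myoblasts differentiate, and how they differ in cells that overexpress PPARγ.

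Levels are given in FPKM, in which fragments are scaled to the exonic length of the gene and to the mapped fragments of the library, so they are levels per length. Each library held between 15557874 and 22013295 fragments on genes. *Pparg* was at 28 to 46.4 FPKM in PPARγ/+ cells against 5.1 to 7.56 FPKM in WT cells on 0d, and at 40.1 to 92.7 against 3.12 to 4.59 FPKM on 5d. All 6 myoblast markers and all 8 myotube markers of the lists were measured, and the summed level of the myotube markers was 8.64 to 142 FPKM over the libraries of 0d and 1220 to 5741 FPKM over those of 5d. Among 10 cardiomyocyte markers, 6 were under 0.1 FPKM in every library. The others were *Gata4* at 4.04 to 7.63 FPKM, *Nkx2-5* at 1.45 to 2.79 FPKM, *Nppb* at 0.157 to 2.38 FPKM and *Myh6* at no more than 1.19 FPKM. A pair of WT libraries stood apart from the rest of their groups. In replicate 3 of WT_5d the 7 tested troponin genes were 3.88 to 5.01-fold below the mean of the other 2 libraries, and only 0.468% to 1.1% of 12400 genes were further below it. The 8 myotube markers were also lower there, with a median difference of -2.08 on the log2 scale. In replicate 2 of WT_0d the same 7 troponin genes were 1.07 to 6.04-fold above the other 2 libraries, least of all *Tnni3*. In this difference 76.1% of 12400 genes were lower than *Tnni3*, and 96.4% to 99.8% were lower than each of the other 6. The myotube markers had a median difference of 3.06 on the log2 scale there. These libraries were singled out by the levels of the genes tested below, so values without them show how far a result rests on them and are no independent test.

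Start site windows of 6 of the 8 genes were found in RefSeq (GRCm38.p6), in 8 windows that reach from 250 bases before to 50 bases after the start of transcription. Genes that move together can share letters there, so the 250 bases before the start are shown for 1 gene of each subunit, *Tnnc1* at chr14:31208062-31208311, *Tnni1* at chr1:135799171-135799420 and *Tnnt2* at chr1:135836084-135836333, each on the plus strand. Capitals mark the E-box CANNTG, which the myogenic factors MyoD and myogenin bind, and the MCAT motif CATTCC, which TEAD factors bind, on either strand.
Tnnc1: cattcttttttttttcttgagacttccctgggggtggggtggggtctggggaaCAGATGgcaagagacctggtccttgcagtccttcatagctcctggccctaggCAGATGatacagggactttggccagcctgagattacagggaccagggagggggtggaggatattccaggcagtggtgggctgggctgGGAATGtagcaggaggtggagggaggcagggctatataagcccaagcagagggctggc
Tnni1: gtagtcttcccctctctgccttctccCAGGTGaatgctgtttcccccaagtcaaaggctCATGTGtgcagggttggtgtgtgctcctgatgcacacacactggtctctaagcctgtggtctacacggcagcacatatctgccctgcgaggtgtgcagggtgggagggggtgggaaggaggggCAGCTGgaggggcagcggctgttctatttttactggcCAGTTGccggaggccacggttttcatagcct
Tnnt2: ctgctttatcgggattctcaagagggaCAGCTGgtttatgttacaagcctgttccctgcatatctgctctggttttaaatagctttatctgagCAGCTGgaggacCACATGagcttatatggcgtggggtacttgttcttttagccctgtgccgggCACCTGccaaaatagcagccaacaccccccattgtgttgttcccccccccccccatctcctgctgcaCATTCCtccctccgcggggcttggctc
The window of *Tnnt2* held the E-box form CAGCTG at positions -223 to -218 and -157 to -152 relative to the start, and an MCAT motif at -27 to -22. The *Tnni1* window held CAGCTG at -68 to -63. In the *Tnnc1* window an MCAT motif, read on the other strand, lay at -58 to -53, beside a pair of E-boxes at -197 to -192 and -145 to -140. An E-box was found in 8 of the 8 troponin windows, and in 72.3% of all 32851 windows in the table. The form CAGCTG, which is one of the E-boxes counted, was in 3 of the 8 windows and 16.3% of all, and CATTCC was in 2 of the 8 and 14.7% of all. The CArG box, the MEF2 consensus and the DR1 element, a direct repeat of AGGTCA with 1 base between, were in none of the 8, and in 1.63%, 3.19% and 0.0396% of all windows. These are matches of letters, not binding sites, and the 8 windows are not independent, since those of *Tnni1* overlap.

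From 0d to 5d, 6 of the 8 troponin genes rose in WT cells and the same 6 rose in PPARγ/+ cells. These were *Tnnc1*, *Tnni1*, *Tnni2*, *Tnnt1*, *Tnnt2* and *Tnnt3*, so that slow, fast and cardiac forms rose together. The folds ran from 15.7 to 106 in WT cells and from 21 to 138 in PPARγ/+ cells. The WT folds rest in part on the libraries that stood apart, and ran from 18.7 to 183 without replicate 2 of WT_0d and from 26.1 to 172 without replicate 3 of WT_5d. *Tnnt2* then went from 15.7-fold to 18.7-fold and 26.1-fold, *Tnnc1* from 45.4-fold to 60.7-fold and 73.5-fold, and *Tnnt1* from 49.3-fold to 73.9-fold and 84.4-fold. *Tnni1* went from 94.8-fold to 173-fold and 159-fold, *Tnni2* from 98.1-fold to 173-fold and 159-fold, and *Tnnt3* from 106-fold to 183-fold and 172-fold. All 6 were called either way. For a call, limma on log2(FPKM + 0.1) had to give an unadjusted p no higher than 0.05 with a change of 2-fold or more, and 8.94% of the 18023 genes tested were called higher on 5d in WT cells and 9.11% in PPARγ/+ cells. Over the 7 troponin genes tested the median log2 fold change was 5.62 in WT and 5.56 in PPARγ/+ cells, against -0.08 and -0.10 over all genes tested. *Tnni3* was not called in either cell type, and *Tnnc2* was too low to be tested.

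*Tnnc1* (chr14:31208312-31211729), which encodes the slow and cardiac troponin C, was the highest of the troponin genes in all 4 groups. Its level in WT cells was 11.8, 25.1 and 9.29 FPKM on 0d and 1198, 898 and 245 FPKM on 5d. In PPARγ/+ cells it was 11.3, 14.6 and 13.4 FPKM on 0d and 251, 280 and 331 FPKM on 5d. Every library of 5d was above every library of 0d, and replicate 3 of WT_5d was close to the PPARγ/+_5d libraries. The log2 fold change was 5.51 (SE 0.66, limma adjusted p = 0.00155) in WT cells and 4.44 (SE 0.13, limma adjusted p = 1.46e-05) in PPARγ/+ cells.

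*Tnnc2* (chr2:164777161-164779967), which encodes the fast troponin C, had almost no fragments. It had 0, 1 and 0 fragments in WT_0d, 7, 1 and 1 in WT_5d, 1, 0 and 1 in PPARγ/+_0d, and 0, 0 and 0 in PPARγ/+_5d. Its highest level was 0.344 FPKM, in replicate 1 of WT_5d. These values cannot be read as the level of the gene. Of its 800 exonic bases, 592 (74%) are also exons of *Ube2c*, a ubiquitin-conjugating enzyme of dividing cells encoded on the opposite strand, between 164777190 and 164778227 of chromosome 2. How the authors' counting treated strand and shared exons is not given in the sources used here. Fragments in a shared stretch may have gone to *Ube2c* or to neither gene, which was not tested. In WT_5d *Ube2c* held 231, 150 and 124 fragments, and 208 exonic bases of *Tnnc2* are not shared with it. *Ube2c* itself fell from 35.4 to 44.5 FPKM in WT_0d to 2.09 to 3.49 FPKM in WT_5d (log2 fold change -3.76, SE 0.19, limma adjusted p = 0.000174).

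Per length, in FPKM, the slow and the fast troponin I gene were at near-equal levels in WT cells. This rests on exonic lengths of 3600 bases for *Tnni1* and 1497 bases for *Tnni2*. In fragments *Tnni1* was above *Tnni2* in each WT_5d library, at 21891, 12208 and 3580 against 9755, 5277 and 1732. *Tnni1* (chr1:135779434-135810989), the slow form, was at 0.702, 4.18 and 0.528 FPKM in WT_0d and at 239, 176 and 43.7 FPKM in WT_5d. *Tnni2* (chr7:142441808-142444410), the fast form, was at 0.861, 4.13 and 0.519 FPKM in WT_0d and at 256, 183 and 50.8 FPKM in WT_5d. For both genes the groups of 0d and 5d did not overlap, replicate 2 was the high library on 0d, and replicate 3 was the low library on 5d. In PPARγ/+ cells *Tnni1* was at 0.137, 0.479 and 0.878 FPKM on 0d and at 41.1, 42.3 and 50.4 FPKM on 5d. *Tnni2* was there at 0.0821, 0.179 and 0.306 FPKM on 0d, from 3, 7 and 10 fragments, and at 34.2, 37.7 and 41.7 FPKM on 5d. The 5d libraries of PPARγ/+ cells were close together, while those of 0d spread more widely and held few fragments. *Tnni1* rose by a log2 fold change of 6.57 (SE 0.91, limma adjusted p = 0.00267) in WT and 6.44 (SE 0.47, limma adjusted p = 0.000108) in PPARγ/+ cells. For *Tnni2* the values were 6.62 (SE 0.87, limma adjusted p = 0.00221) and 7.11 (SE 0.28, limma adjusted p = 1.61e-05).

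*Tnni3* (chr7:4518305-4524229), the cardiac troponin I, did not pass 1.21 FPKM in any library. It was at 0.294, 0.308 and 0.269 FPKM in WT_0d and at 0.814, 1.21 and 0.182 FPKM in WT_5d, where replicate 3 was below all of WT_0d. The PPARγ/+ libraries were at 0.234, 0.139 and 0.238 FPKM on 0d and 0.2, 0.241 and 0.14 FPKM on 5d, so the days overlapped. Between 5 and 45 fragments stood behind each value. Its log2 fold change was 0.84 (95% confidence interval -0.51 to 2.18, limma adjusted p = 0.288) in WT and -0.05 (-0.64 to 0.55, limma adjusted p = 0.903) in PPARγ/+ cells. Without replicate 3 of WT_5d, the low library, the value in WT cells was 1.49 and met the criteria of a call (limma adjusted p = 0.00788). *Tnni3* shares 86 exonic bases (4.17%) with *Dnaaf3*, a dynein assembly factor gene on the same strand.

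All 3 troponin T genes rose in both cell types, and the order of their means in WT cells was not the same on the 2 days. *Tnnt3* (chr7:142498836-142516009), the fast form, was at 2.04, 8.89 and 1.34 FPKM in WT_0d and at 615, 439 and 123 FPKM in WT_5d. It was at 1.12, 1.76 and 1.94 FPKM in PPARγ/+_0d and at 66.9, 81.8 and 88.4 FPKM in PPARγ/+_5d. The 5d libraries of PPARγ/+ cells lay below all 3 WT libraries of that day. The log2 fold change was 6.73 (SE 0.85, limma adjusted p = 0.00189) in WT and 5.56 (SE 0.21, limma adjusted p = 1.6e-05) in PPARγ/+ cells. *Tnnt1* (chr7:4504570-4516382), the slow form, was at 1.19, 4.28 and 1.22 FPKM in WT_0d and at 213, 127 and 32.8 FPKM in WT_5d. It was at 0.223, 0.209 and 0.332 FPKM in PPARγ/+_0d and at 21.5, 25.7 and 25.6 FPKM in PPARγ/+_5d. On both days every PPARγ/+ library was below every WT library. The gene rose by 5.62 (SE 0.79, limma adjusted p = 0.00272) in WT and 6.11 (SE 0.16, limma adjusted p = 1.36e-05) in PPARγ/+ cells on the log2 scale.

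*Tnnt2* (chr1:135836354-135852260), the cardiac form, was at 3.1, 6.3 and 4.46 FPKM in WT_0d, above the other troponin T genes in replicates 1 and 3. On 5d it was at 146, 95.5 and 25.9 FPKM in WT cells, the lowest of the 3 troponin T genes in each library. In PPARγ/+ cells it was at 1.4, 0.92 and 0.792 FPKM on 0d and at 20.5, 23.9 and 25.6 FPKM on 5d. Here too the PPARγ/+ libraries were below all WT libraries of the same day. Its log2 fold change from 0d to 5d was 3.98 (SE 0.64, limma adjusted p = 0.0045) in WT and 4.40 (SE 0.20, limma adjusted p = 2.35e-05) in PPARγ/+ cells. The FPKM divides by the exons of all annotated transcripts, which for *Tnnt2* sum to 7752 bases over 15 transcripts, against 1041 bases for *Tnnc1*. In fragments *Tnnt2* reached 28893 in replicate 1 of WT_5d and *Tnnc1* reached 31774, so the order of levels between genes depends on this length, while the comparisons of 1 gene between groups do not.

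**Figure D1:**
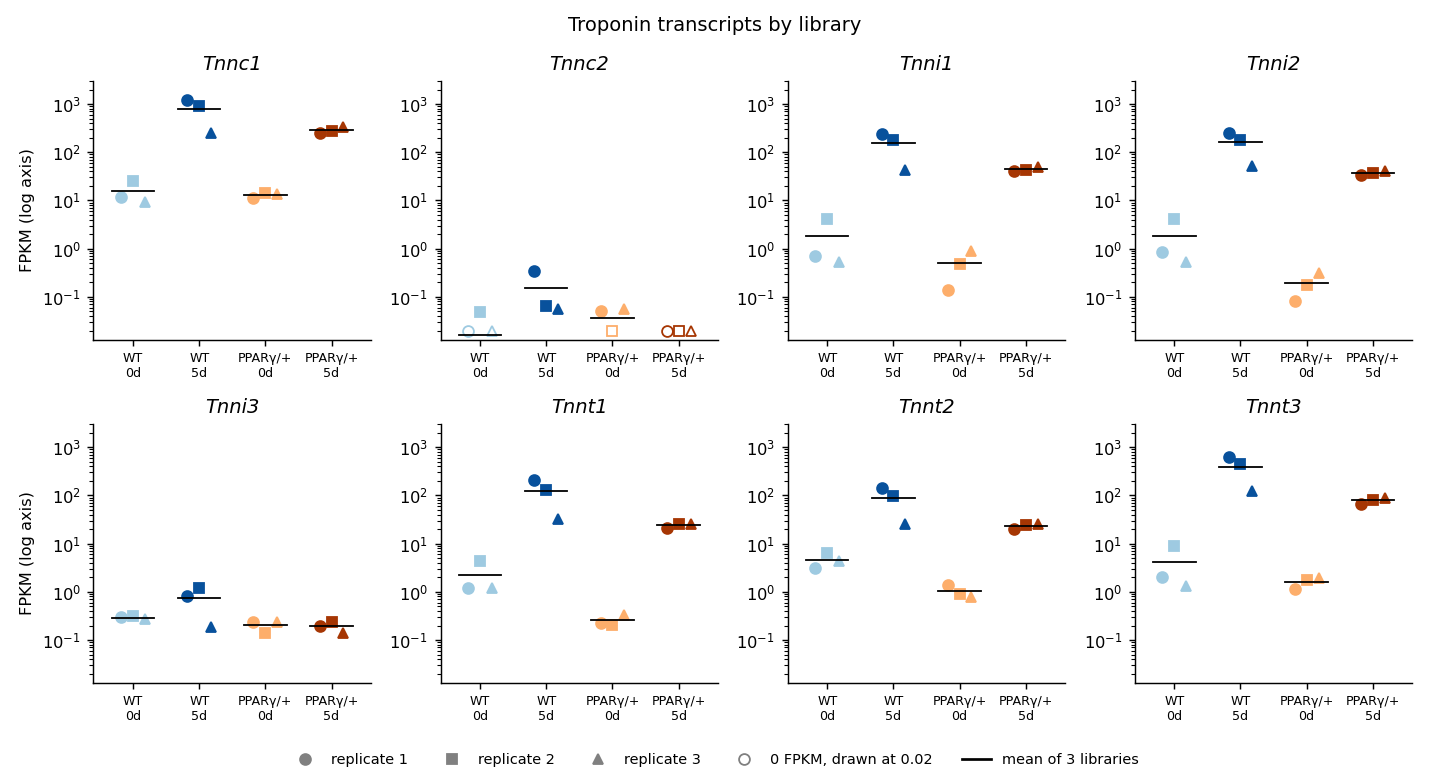
Level of each troponin gene in FPKM on a log axis, for the 3 libraries of each group, with the mean as a line and values of 0 drawn as open symbols. Of the 7 tested genes, the same 6 sit higher in all 5d libraries than in all 0d libraries in both cell types. Of all genes tested, 20.2% do so in WT and 23.8% in PPARγ/+ cells. *Tnni3* does not pass 1.21 FPKM, and the untested *Tnnc2* does not pass 0.344 FPKM.

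**Figure D2:**
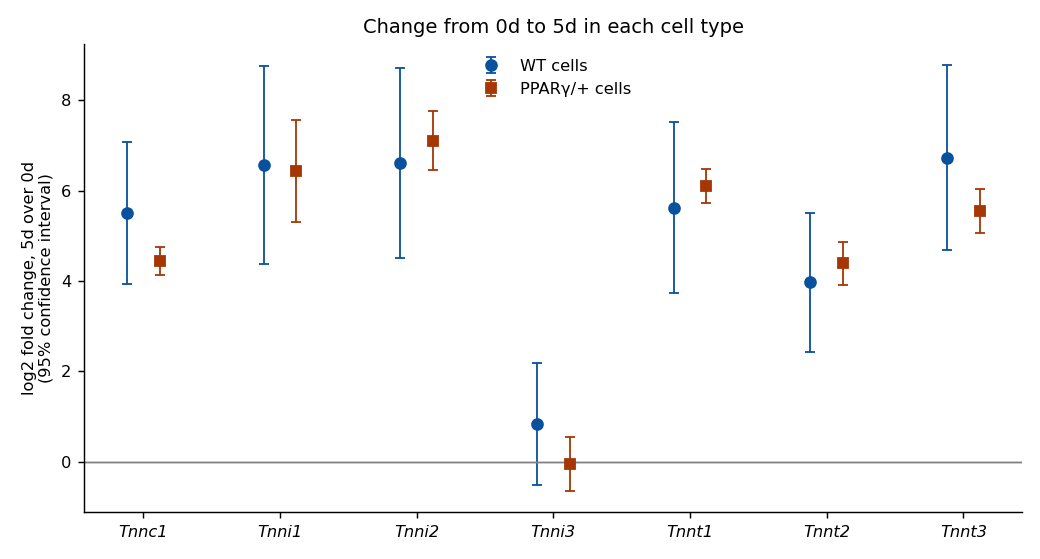
Log2 fold change from 0d to 5d of the 7 tested troponin genes with its 95% confidence interval, in WT cells (circles) and PPARγ/+ cells (squares). The 6 called genes lie between 3.98 and 7.11, and the intervals of *Tnni3* include 0.

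On 0d, *Tnnt2* was lower in PPARγ/+ than in WT cells, and it was the only troponin gene that passed the test between cell types, which asks for a limma adjusted p no higher than 0.05 with a change of 2-fold or more. Its log2 fold change was -2.03 (SE 0.31, limma adjusted p = 0.0306), which is a 4.09-fold lower level. All 7 tested troponin genes had a negative log2 fold change, with a median of -1.34, against 0.02 over all genes tested, of which 1.23% were called lower. *Tnnt1* was at -2.48 (SE 0.51, limma adjusted p = 0.0596) and *Tnni2* at -2.31 (SE 0.75, limma adjusted p = 0.154), and neither passed. Together with *Tnnt2* and *Tnni3* these were the 4 of the 7 tested genes whose PPARγ/+ libraries all lay below the WT libraries, which was so for 13.1% of all genes tested. *Tnnc1* differed least, at -0.10 with a 95% confidence interval of -0.99 to 0.79. The call of *Tnnt2* was lost whenever 1 library was left out, with fold changes of -2.28 to -1.78 and adjusted p-values of 0.0521 to 0.122 by limma. Without replicate 2 of WT_0d the difference of *Tnni1* moved from -1.34 to -0.47 and that of *Tnnt3* from -0.86 to -0.07, while *Tnnc1* turned to 0.31. *Tnnt1* stayed at -1.89 (limma adjusted p = 0.054) and *Tnni2* at -1.49 (limma adjusted p = 0.187).

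On 5d, no troponin gene was called between the cell types, and all 7 tested genes had a lower mean log2 level in PPARγ/+ cells. The log2 fold changes ran from -1.17 for *Tnnc1* (95% confidence interval -2.62 to 0.29) to -2.03 for *Tnnt3* (-3.48 to -0.58), with limma adjusted p-values of 0.271 to 0.461. The unadjusted p-values of 4 of the 7, *Tnni2*, *Tnnt1*, *Tnnt2* and *Tnnt3*, were under 0.05 in limma, against 6.1% of all genes tested with a lower level in PPARγ/+ cells. For the same 4 of the 7 all PPARγ/+ libraries lay below the WT libraries, against 8.31% of all genes tested. Few genes passed at all on this day, with 0.061% of all genes tested called lower. The result depended on replicate 3 of WT_5d. Without it the log2 fold changes ran from -1.86 for *Tnnc1* to -2.76 for *Tnnt1*, and all 7 met the criteria of a call, as did 2.82% of all genes tested. That library was singled out because these same genes were low in it, so leaving it out raises the WT level of these genes by its choice, and the calls made without it are no test of the difference. Leaving out any other library of 5d gave no troponin call. The myotube markers were lower in the same direction, with a median log2 fold change of -1.33 over all 6 libraries and 0 of 8 called. In these bulk samples, fewer myotubes and less troponin RNA per myotube cannot be told apart.

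**Figure D3:**
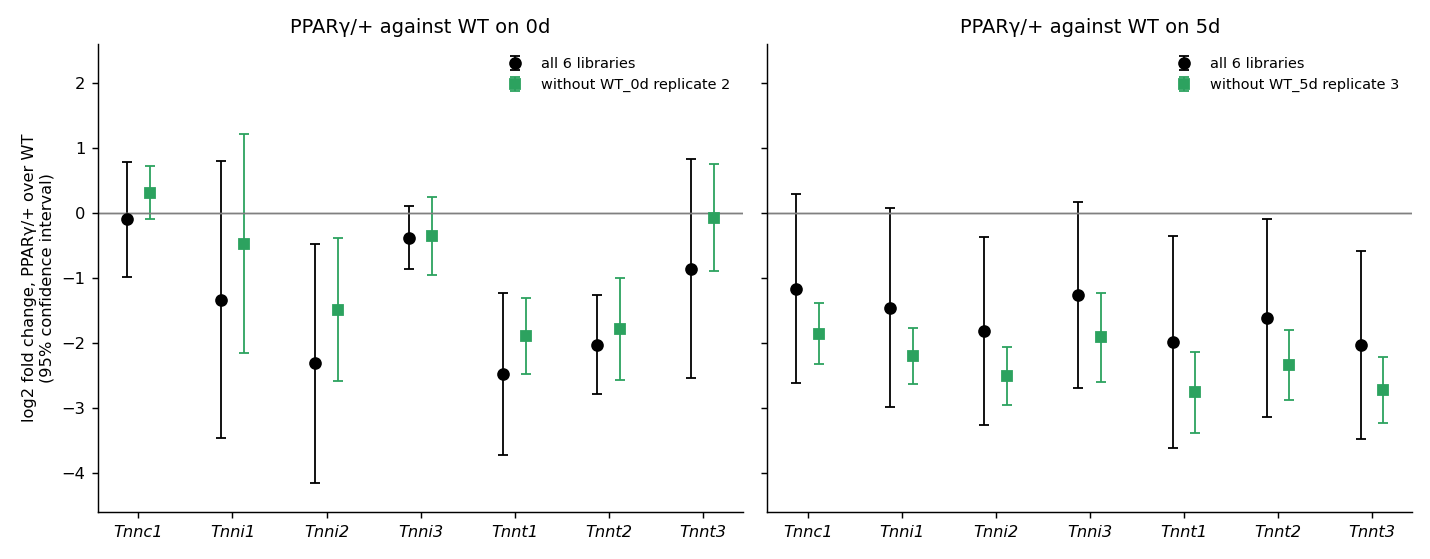
Log2 fold change of PPARγ/+ over WT cells with its 95% confidence interval for the 7 tested troponin genes, on 0d (left) and 5d (right), over all 6 libraries (circles) and without the WT library that stood apart (squares). On 5d all 7 values lie below 0, from -1.17 to -2.03 with every library and from -1.86 to -2.76 without replicate 3 of WT_5d.

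The rise from 0d to 5d was not shown to differ between the cell types for any of the 7 tested genes. In the test of the difference itself, a cell type by day interaction fitted to the 12 libraries, values ran from -1.17 for *Tnnt3* (95% confidence interval -3.24 to 0.89) to 0.49 for *Tnni2* (-1.67 to 2.65), with limma adjusted p-values of 0.621 to 0.975. None of the 7 had an unadjusted p-value under 0.05, and 0.76% of all genes tested were called. The intervals are wide and include changes of more than 2-fold in either direction for *Tnni1*, *Tnni2*, *Tnnt1* and *Tnnt2*. Without replicate 3 of WT_5d, with the same limit, *Tnni3* was at -1.53 and alone met the criteria of a call (limma adjusted p = 0.0471).

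The make-up of the troponin genes was then compared within each library, where the depth acts on all of them alike. The ratios below divide FPKM, so their size depends on the exonic lengths of the genes. A test of 3 against 3 libraries cannot give an exact p-value under 0.1. Summed troponin C is in effect *Tnnc1* here, since the values of *Tnnc2* cannot be read as its level. Its ratios are therefore those of *Tnnc1*, with the fast troponin C left unmeasured. On 5d this sum was high in PPARγ/+ cells relative to the other subunits. The ratio of summed troponin C to summed troponin T was 1.23, 1.36 and 1.35 in the WT_5d libraries and 2.31, 2.13 and 2.37 in the PPARγ/+_5d libraries. Replicate 3 of WT_5d, whose summed troponin level of 521 FPKM lay among the 436 to 563 FPKM of PPARγ/+_5d, had the ratio of the other WT libraries. The difference was 0.79 on the log2 scale (two-sided exact permutation p = 0.1, the smallest possible, adjusted p = 0.12 over 12 tests). On 0d the same ratio was 1.29 to 1.86 in WT and 4.15 to 5.03 in PPARγ/+ cells, a difference of 1.58 (exact permutation p = 0.1, adjusted p = 0.12), which was 1.49 without replicate 2 of WT_0d.

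The same direction was found for troponin C over troponin I, whose ratio was 2.42 to 2.59 in WT_5d and 3.33 to 3.59 in PPARγ/+_5d (log2 difference 0.47, exact permutation p = 0.1, adjusted p = 0.12). For troponin I over troponin T the ranges were 0.508 to 0.543 in WT_5d and 0.61 to 0.693 in PPARγ/+_5d (log2 difference 0.32, exact permutation p = 0.1, adjusted p = 0.12). None of these 3 ratios overlapped between the cell types on 5d, and none passes a threshold of 0.05 in this design. They are not separate results, since troponin C over troponin T is the product of the other 2 ratios. On 0d troponin I over troponin T overlapped, with a difference of 0.02 (exact permutation p = 1) that was 0.30 without replicate 2 of WT_0d.

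The fast to slow ratio within troponin T did not differ between the cell types on 5d beyond the spread of the libraries. *Tnnt3* over *Tnnt1* was 2.89 to 3.74 in WT_5d and 3.11 to 3.46 in PPARγ/+_5d, a log2 difference of -0.04 (exact permutation p = 0.8). On 0d it was 1.1 to 2.08 in WT cells, below the ratios of 5d, and 5.02 to 8.45 in PPARγ/+ cells, above them, where *Tnnt1* stood on 12, 12 and 16 fragments. The log2 difference of 5d from 0d was 1.11 in WT cells, and 1.31 without replicate 2 of WT_0d. In PPARγ/+ cells it was -0.55, and turned to 0.62 with a pseudocount of 1, so its direction depends on how the low values of 0d are treated (exact permutation p = 0.1 for each of the 2 changes). Within troponin I, *Tnni2* over *Tnni1* was 1.04 to 1.16 in WT_5d and 0.828 to 0.893 in PPARγ/+_5d, with no overlap (log2 difference -0.36, exact permutation p = 0.1, adjusted p = 0.145 over 16 tests). *Tnnt3* over the cardiac *Tnnt2* was 4.2 to 4.74 in WT_5d and 3.26 to 3.45 in PPARγ/+_5d, again without overlap (log2 difference -0.42, exact permutation p = 0.1, adjusted p = 0.145).

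**Figure D4:**
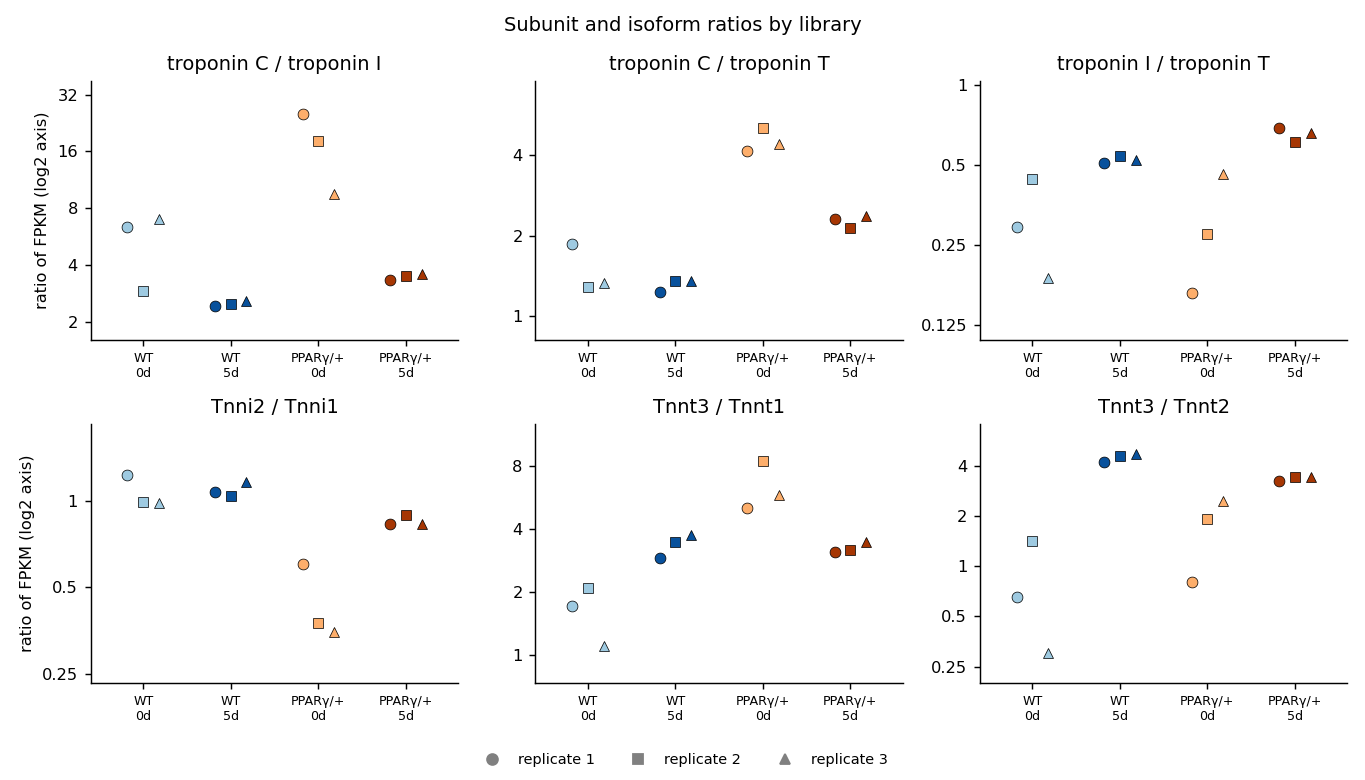
Ratios of summed troponin C, I and T (upper row) and of fast over slow or cardiac forms (lower row) in each library, as ratios of FPKM on a log2 axis. On 5d the ratio of summed troponin C, in effect *Tnnc1*, to troponin T is 1.23 to 1.36 in WT and 2.13 to 2.37 in PPARγ/+ cells. *Tnnt3* over *Tnnt1* overlaps between the cell types.

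Expressed as shares of FPKM, *Tnnt3* made up 63.1% to 67.6% of the troponin T level in WT_5d and 61.4% to 63.3% in PPARγ/+_5d. Such shares too depend on the exonic lengths. In fragments *Tnnt2* was above *Tnnt3* in each WT_5d library, at 28893, 14288 and 4570 against 21794, 11780 and 3885. On 0d the share of *Tnnt2* was 32.3% to 63.6% in WT and 25.8% to 51.1% in PPARγ/+ cells, and on 5d it was 14.3% to 15% and 18.2% to 18.8%. *Tnni3*, the cardiac troponin I, made up 3.58% to 51.7% of the low troponin I level on 0d and at most 0.336% on 5d. All troponin genes together took 0.00512% to 0.019% of a library's total FPKM on 0d. On 5d they took 0.193% to 0.997% in WT and 0.164% to 0.209% in PPARγ/+ cells.

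**Figure D5:**
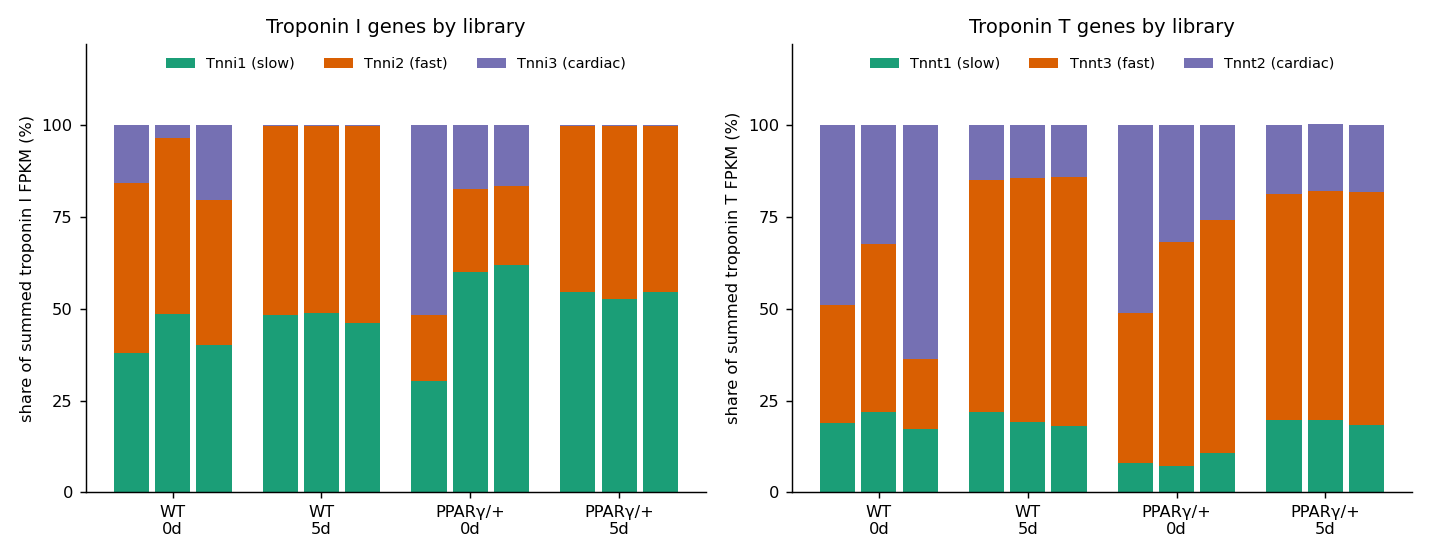
Share of each gene in the summed troponin I FPKM (left) and troponin T FPKM (right) of each library, as stacked bars that sum to 100%, with replicates 1 to 3 from left to right in each group. On 5d the shares are near equal across libraries of a group, with *Tnnt3* at 61.4% to 67.6% of troponin T.

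The order of levels was *Tnnc1*, *Tnnt3*, *Tnni2*, *Tnni1*, *Tnnt1*, *Tnnt2*, *Tnni3* and *Tnnc2* by the mean in WT_5d, at 780, 392, 163, 153, 124, 89.2, 0.735 and 0.154 FPKM. The same order held in each of the 3 libraries. It is an order per exonic length, and *Tnnc2* is placed by values that cannot be read as its level. Across libraries, the ranges of neighbours in the order overlapped except between *Tnnt2* and *Tnni3*. In PPARγ/+_5d the means were 288 FPKM for *Tnnc1*, 79.1 for *Tnnt3*, 44.6 for *Tnni1*, 37.9 for *Tnni2*, 24.3 for *Tnnt1* and 23.3 for *Tnnt2*. Here *Tnni1* stood above *Tnni2* in all 3 libraries, and *Tnnt1* and *Tnnt2* were not separated, with overlapping ranges. *Tnnc1* was first in both 0d groups, at a mean of 15.4 FPKM in WT_0d and 13.1 FPKM in PPARγ/+_0d. In WT_0d it was followed by *Tnnt2* at 4.62 FPKM, and in PPARγ/+_0d by *Tnnt3* at 1.61 FPKM, whose range overlapped with that of *Tnnt2*.

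The 6 genes that rose moved closely together over the 12 libraries. Pearson's r of log2(FPKM + 0.1) lay between 0.944 and 0.995 for each pair of them, and between 0.478 and 0.591 for *Tnni3* with any of the 6. These values describe libraries that fall into 2 days, and they share depth and differentiation state. Of 12400 genes ranked, the most alike to *Tnni1* was *Mylpf*, a fast skeletal myosin light chain (r = 0.9985), and to *Tnni2* it was *Myl1*, an alkali myosin light chain (r = 0.9977). *Tnnt1* was most like *Atp2a1*, the fast calcium pump of the sarcoplasmic reticulum (r = 0.9979), and *Tnnt3* was most like *Cacna1s*, the calcium channel of the T-tubule (r = 0.9976). *Tnnc1* was most like *Unc45b*, a myosin chaperone (r = 0.9972). *Tnnt2* was most like *Tnnt1* (r = 0.9911), the one case in which another troponin gene was among the 3 most alike.

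The troponin genes lie in pairs of a troponin I and a troponin T gene, *Tnni1* with *Tnnt2* on chromosome 1, *Tnni2* with *Tnnt3* and *Tnni3* with *Tnnt1* on chromosome 7. The starts of *Tnni3* and *Tnnt1* are 7847 bases apart, yet *Tnnt1* rose and *Tnni3* was not called. Of 21 other protein-coding genes that start within 50 kb of a troponin gene, 19 were tested. Their median log2 fold change from 0d to 5d was -0.15 in WT and -0.22 in PPARγ/+ cells. In each cell type 2 of the 19 were called higher, close to the shares over all genes tested, 8.94% and 9.11%. *Syt8*, a synaptotagmin gene whose start is 6958 bases from that of *Tnni2*, rose by 4.39 (SE 0.59, limma adjusted p = 0.00236) in WT and 2.84 (SE 0.26, limma adjusted p = 0.000246) in PPARγ/+ cells. *Lad1*, which lies between *Tnni1* and *Tnnt2*, rose at a low level, from at most 0.0508 to 0.0646 to 0.412 FPKM in WT cells (log2 fold change 1.42, limma adjusted p = 0.0552, called on its unadjusted p). *Lsp1*, between *Tnni2* and *Tnnt3*, did not reach a 2-fold change, with 0.81 in WT and 0.87 in PPARγ/+ cells. *Ube2c* fell in both cell types (-3.76 and -3.33) and *Dnaaf3* in PPARγ/+ cells (-1.17, SE 0.19, limma adjusted p = 0.0023). No neighbour was called between the cell types on either day, when 287 and 28 of all 18023 genes tested were called on 0d and 5d.

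Most other genes of the thin filament rose from 0d to 5d. Of 19 tested, 13 were called higher in WT and 13 in PPARγ/+ cells (medians 2.35 and 2.33), against 8.94% and 9.11% of all genes tested. *Nebl*, also in the list, was too low to be tested. A gene could pass the filter through its 5d libraries alone. In PPARγ/+ cells *Tpm3*, a tropomyosin of slow fibres and of non-muscle cells, was called lower (-1.01). *Acta1*, the skeletal actin, was at a mean of 24 FPKM in WT_0d and 1457 FPKM in WT_5d (log2 fold change 6.48, limma adjusted p = 0.00379), and at 9.78 and 684 FPKM in PPARγ/+ cells (6.27, limma adjusted p = 6.35e-05). *Tpm2*, the beta tropomyosin that troponin T binds, changed less, by 1.96 in WT and 1.04 in PPARγ/+ cells. None of the 19 was called between the cell types on 5d, when only 28 of all 18023 genes tested were called.

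Genes of fast and of slow fibres outside troponin both rose. Among fast genes 11 of 13 were called higher in WT and 10 of 13 in PPARγ/+ cells, with medians of 4.22 and 3.41. Among slow genes 9 of 10 were called higher in each cell type, with medians of 4.61 and 3.62. The shares called higher over all genes tested were 8.94% in WT and 9.11% in PPARγ/+ cells. The slow list held 13 genes, of which *Myl3*, *Sln* and *Pln* were too low to be tested. A gene could pass the filter through its 5d libraries alone, so these counts leave out genes that were low on both days. *Mylpf* rose by 6.76 in WT and 6.45 in PPARγ/+ cells, and *Myl1* by 6.03 and 6.09, while *Eno3*, the muscle enolase, was at 0.13 and -0.64 and was not called. *Casq2*, the slow and cardiac calsequestrin, rose by 6.63 and 5.94, and *Mb*, myoglobin, by 6.64 and 6.16. On 5d 0 fast and 0 slow genes were called between the cell types by limma with all 6 libraries, with medians of -1.52 and -1.68. Only 28 of all 18023 genes tested were called there.

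Of 22 regulators of myogenesis and fibre type, 5 were called higher and 1 lower in WT cells, and 3 higher in PPARγ/+ cells. Over all genes tested 8.94% were called higher in WT and 9.11% in PPARγ/+ cells. *Myog*, which encodes myogenin, rose by 5.40 (limma adjusted p = 0.00473) in WT and 5.90 (limma adjusted p = 0.0002) in PPARγ/+ cells. Among the MEF2 factors, which act with the myogenic factors, *Mef2c* rose from a low level, by 2.49 (limma adjusted p = 0.0747, called on its unadjusted p) in WT and 1.26 (limma adjusted p = 0.00451) in PPARγ/+ cells. *Mef2d* was at 0.51 and 0.17 and *Mef2a* at 0.97 and 0.73, and neither was called. The gene called lower in WT cells was *Myf5* (-1.46, limma adjusted p = 0.00268), a factor of proliferating myoblasts. In PPARγ/+ cells *Myf5* was at 0.74 (limma adjusted p = 0.00791), which is less than 2-fold. Its interaction of cell type and day was called, at 2.20 (limma adjusted p = 0.00844). On 0d *Myf5* was called lower in PPARγ/+ than in WT cells (-1.58, limma adjusted p = 0.00486). The calcium sensors that resemble troponin C mostly did not change 2-fold. Of 11 tested EF-hand genes, 2 were called higher in WT and 1 in PPARγ/+ cells, with medians of -0.23 and 0.07, and the calmodulin gene *Calm2* was at -0.67 and -0.76 without reaching a 2-fold change. All 10 genes of the cell cycle list were called lower in both cell types, against 1358 of all 18023 genes tested in WT and 1093 in PPARγ/+ cells.

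Markers of other cell types differed between the PPARγ/+ and WT cells beside the troponin genes. Of 8 adipocyte markers tested, 3 were called higher in PPARγ/+ cells on 0d and 2 on 5d, *Adipoq* (log2 fold change 7.22, limma adjusted p = 0.0378) and *Fabp4* (5.65, limma adjusted p = 0.0166). Over all 18023 genes tested, 65 were called higher in PPARγ/+ cells on 0d and 17 on 5d. The summed level of the adipocyte list was 12.7 to 33.8 FPKM in WT_5d and 79.3 to 166 FPKM in PPARγ/+_5d. Of the 6 myoblast markers, 3 were called lower in PPARγ/+ cells on 0d and 0 on 5d by limma, against 1.23% and 0.061% of all genes tested. The summed level of the myoblast markers on 0d was 213 to 387 FPKM in WT and 97.9 to 139 FPKM in PPARγ/+ cells. Between the days, the myoblast list had 2 genes called higher and 2 lower in WT cells and 4 higher in PPARγ/+ cells. Over all 18023 genes tested, 1612 were called higher and 1358 lower in WT cells, and 1642 and 1093 in PPARγ/+ cells. In the smooth muscle list 1 of 5 was called higher and 1 lower in WT cells, and 1 higher and 2 lower in PPARγ/+ cells. In the cardiomyocyte list 1 of 4 was called higher and 1 lower in WT cells and 0 in PPARγ/+ cells by limma. Between the cell types 1 of the 4 was called, *Nppb*, a natriuretic peptide gene, lower in PPARγ/+ cells on 0d (-2.52, limma adjusted p = 0.022). The part of these marker differences in the troponin values was not tested.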

How the data were processed

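RNA from C2C12 cells was sequenced in pairs of reads, in 4 groups of 3 libraries. After trimming (Trim Galore), alignment (STAR) and counting per gene (HTSeq), the authors deposited an FPKM value for each gene, used here, with a second table of the same values as log2(FPKM + 1) that was not used. Their methods name GRCm38 with Ensembl genes, and the submitters' processing notes name mm9. Positions are given on GRCm38, since exonic lengths of that build turned the FPKM of 21058 of 27138 expressed genes into whole fragments (within 0.001 of a whole number). For 6079 genes the length was inferred, *Tnni3* and *Tnnt3* among them, and 1 gene gave none. No count file was used, and the recovered fragments served for depth, low values and 1 alternative.

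A limma model with an intensity trend (limma 3.58.1, R 4.3.3) was fitted to log2(FPKM + 0.1) of the 18023 genes with at least 0.1 FPKM in at least 3 libraries, so fold changes of low genes are understated. Each comparison of 2 groups used its own 6 libraries, and the interaction used all 12. Changes from 0d to 5d were called where the unadjusted p-value was 0.05 or lower and the change 2-fold or more, as in the study's methods. Cell types were compared by the p-value adjusted over all genes tested (Benjamini-Hochberg, 0.05 or lower) with the same fold, and the interaction by the adjusted p-value alone. Ratios within a library were compared by two-sided exact permutation tests. The fits were tested on simulated data with an equal spread in all groups and changes in higher genes only. This does not cover libraries that stand apart or genes with few fragments. The other steps used Python 3.11.15 (pandas 2.3.3, numpy 2.4.6, scipy 1.17.1, matplotlib 3.10.9).

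The 8 genes and all gene lists were chosen with earlier results of these data known. The text names the 8 genes, the 3 genes most alike to each by Pearson's r (the first of which is given), protein-coding genes that start within 50 kb, and the genes of highest mean FPKM in each list. A gene that this rule would name among the regulators is not reported here. Genes named because a count was small, such as *Tpm3*, *Myf5*, *Nppb*, *Adipoq* and *Fabp4*, and *Mef2c*, were chosen after their values were seen.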

Additional observations from a re-analysis of the deposited data

How the results depend on the processing

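Of the log2 fold changes and interactions of the 7 tested genes, 569 were recomputed, 317 with another setting and 252 without 1 library. The 6 calls from 0d to 5d in each cell type were kept with a pseudocount of 1 or 0.01, no filter, a filter of 1 FPKM, median-ratio scaling, quantile normalization, the replicate block, all 12 libraries, an adjusted p-value, voom on recovered fragments and without any 1 library. Median-ratio scaling moved the median of all genes from -0.08 to 0.02 in WT and from -0.10 to 0.02 in PPARγ/+ cells. The single call on 0d, *Tnnt2*, was kept in some of these settings only. There were 0 troponin calls with no filter (107 genes of all called) and 2 with a filter of 1 FPKM, with all 12 libraries and with voom (485 genes of all), where *Tnnt1* was added at -2.48 (adjusted p = 0.0265 and 0.0401) and -2.90 (adjusted p = 0.0324).

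With a pseudocount of 1, 1441 genes of all were called from 0d to 5d in WT cells (2970 in the main fit), 1241 in PPARγ/+ cells (2735), 115 between cell types on 0d (287) and 8 on 5d (28). A filter of 1 FPKM left 1806 in PPARγ/+ cells. On 5d a pseudocount of 0.01 gave 71 genes and all 12 libraries gave 199. A pseudocount of 1 turned the interactions of *Tnni2* to -0.76, *Tnnt1* to -0.72 and *Tnnt2* to -0.15, and *Tnnt3* over *Tnnt1* in PPARγ/+ cells from 0d to 5d to 0.62. A pseudocount of 0.01 turned *Tnni3* over *Tnni1* on 5d to -0.08, troponin I over troponin T on 0d to -0.06 and the interaction of *Tnni1* to 0.09, which voom put at 0.21. Median-ratio scaling put *Tnni3* in PPARγ/+ cells at 0.04. None of these was called in either setting.

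With the replicate number as a block, 0 genes of all and 0 troponin genes were called by limma between the cell types on 0d (2755 of all at an unadjusted p under 0.05), where *Tnnt2* was at -2.03 with adjusted p = 0.178, and 0 genes of all on 5d (2001 unadjusted). The interaction then had 61 genes of all against 137. Same-numbered libraries of different groups did not deviate together (r from -0.0678 to 0.0834 over 18 pairs), so the numbers were not taken as pairs, and no other troponin call changed under the block. For ratios the smallest p of a sign-flip test of 3 pairs is 0.25.

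Without 1 library, the count of all genes called between cell types ran from 55 to 137 on 0d and from 1 to 723 on 5d, and that of the interaction from 42 to 527. The 723 and 527 came without replicate 3 of WT_5d. Troponin calls ran from 0 to 0 on 0d, 0 to 7 on 5d and 0 to 1 in the interaction. Values that changed sign lay between -0.16 and 0.49 with every library, and their direction was not settled. *Tnnc1* on 0d ran from -0.40 to 0.31, *Tnni3* in PPARγ/+ cells from 0d to 5d from -0.21 to 0.09, and the interactions of *Tnni1* from -0.99 to 0.40, *Tnni2* from -0.33 to 1.06, *Tnnt1* from -0.29 to 1.06 and *Tnnt2* from -0.31 to 0.94. Among ratios, *Tnnt3* over *Tnnt1* on 5d ran from -0.15 to 0.04, *Tnni3* over *Tnni1* on 5d from -0.09 to 0.43, troponin C over T from 0d to 5d in WT cells from -0.25 to 0.01 and troponin I over T on 0d from -0.31 to 0.34. The cause of these changes was not tested.

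The ratio of *Tnnc2* to *Tnnc1* was planned and not run, since *Tnnc2* had more than 3 fragments in 1 library only. Depth limits *Tnnc2*, *Tnni3* and the PPARγ/+_0d values of *Tnni2* and *Tnnt1*, and the spread of the WT libraries limits the comparisons of cell types.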
